A study of Homo sapiens with 4 samples.

Results

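The human alcohol dehydrogenases and carboxylesterases were followed as 9 genes of 26255 gene symbols: ADH1A, ADH1B, ADH1C, ADH5, ADH6, ADH7, CES1, CES2 and AADAC. They were taken by symbol. ADH1C and CES1 were selected on their high values in 3D normoxia, so their levels and differences are a description with no test. Genes with a mean below 1 FPKM (fragments for each kilobase of transcript, relative to sequencing depth) over the 4 libraries were counted as not expressed. By that threshold 6 members were expressed, with CES1 the lowest of them at a mean of 3.69 FPKM. Of the 3 that were not, ADH1B was the highest at a mean of 0.0269 FPKM.

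RNA was measured in wild type A549 cells, a line from a human adenocarcinoma of the lung, kept for 5 days in medium with 5% serum. The 4 groups, with 1 library each, were 3D hypoxia and 3D normoxia (on solidified Matrigel, a gelled basement membrane extract) and 2D hypoxia and 2D normoxia (on a culture dish), where hypoxia was 1% oxygen. The labels do not say whether the libraries came from separate cultures. With 1 library per group there is no spread within a group. The SE and p-values below rest on how far the hypoxia responses of the 2 cultures differ, combined with a value estimated over all genes. They do not measure the spread between replicate cultures.

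Alcohol dehydrogenases are zinc enzymes of the cytosol that oxidise alcohols to aldehydes with NAD+. The class I enzymes ADH1A, ADH1B and ADH1C clear ethanol in the liver and also act on retinol. ADH5 works mainly on the formaldehyde adduct of glutathione and is found in nearly all cells, while ADH7 is an enzyme of the stomach and oesophagus. Carboxylesterases are serine hydrolases of the endoplasmic reticulum that cleave esters, amides and many prodrugs, and AADAC is a related microsomal deacetylase. Both groups are best known from liver and intestine.

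The stretches before the start sites of the 5 genes below are shown because these genes lie in 1 cluster on chromosome 4 and ADH1A, ADH1B and ADH1C share much of their sequence, while their levels in A549 cells were far apart. Each is the 250 bases before the start annotated by RefSeq on GRCh38.p14, minus strand, read 5′ to 3′, at chr4:99352747-99352996 for ADH1C, chr4:99321402-99321651 for ADH1B, chr4:99290986-99291235 for ADH1A, chr4:99219247-99219496 for ADH6 and chr4:99088789-99089038 for ADH5. Capitals mark ACGTG and GCGTG on either strand, the core letters of the element bound by hypoxia-inducible factors. The expression values were made on hg19, another build, so the sequences were matched to them by symbol alone.
ADH1C: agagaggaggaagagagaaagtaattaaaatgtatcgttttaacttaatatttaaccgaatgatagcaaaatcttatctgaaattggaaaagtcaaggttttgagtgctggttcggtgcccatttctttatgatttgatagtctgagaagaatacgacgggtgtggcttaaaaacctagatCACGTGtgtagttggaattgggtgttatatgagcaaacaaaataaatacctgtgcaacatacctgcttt
ADH1B: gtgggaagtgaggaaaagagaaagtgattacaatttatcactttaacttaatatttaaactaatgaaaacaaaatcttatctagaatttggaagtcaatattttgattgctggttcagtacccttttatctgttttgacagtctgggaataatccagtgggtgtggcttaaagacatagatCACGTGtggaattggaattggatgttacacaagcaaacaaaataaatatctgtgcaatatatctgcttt
ADH1A: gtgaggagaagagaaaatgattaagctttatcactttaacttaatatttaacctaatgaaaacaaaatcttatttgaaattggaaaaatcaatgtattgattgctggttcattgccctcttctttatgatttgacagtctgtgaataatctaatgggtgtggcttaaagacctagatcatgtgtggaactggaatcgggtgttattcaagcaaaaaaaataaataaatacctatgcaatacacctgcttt
ADH6: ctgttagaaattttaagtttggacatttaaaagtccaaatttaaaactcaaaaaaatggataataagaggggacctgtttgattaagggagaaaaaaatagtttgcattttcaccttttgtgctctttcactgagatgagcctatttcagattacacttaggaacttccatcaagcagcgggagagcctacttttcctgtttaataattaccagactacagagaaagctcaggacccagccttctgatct
ADH5: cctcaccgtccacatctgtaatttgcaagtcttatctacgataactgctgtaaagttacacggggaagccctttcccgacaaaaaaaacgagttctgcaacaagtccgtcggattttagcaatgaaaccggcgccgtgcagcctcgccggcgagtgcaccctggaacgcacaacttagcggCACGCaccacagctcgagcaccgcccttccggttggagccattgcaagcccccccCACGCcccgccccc

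Entries were found for 8 of the 9 members, all but CES1. Within these windows ADH1C was 81.5% identical to ADH1A and 81.5% to ADH1B, 49.1% to ADH6 and 46.8% to ADH5, beside 50.2% to AADAC on another chromosome. ADH1B and ADH1C both carried CACGTG at bases -69 to -64 from the start, where ACGTG reads on both strands and overlaps itself. ADH1A and ADH6 had no match to either motif, and ADH5 had GCGTG on the other strand at -69 to -65 and at -14 to -10. Of the same windows of 27305 genes, 18.7% held ACGTG, 31.9% GCGTG, 43.1% at least 1 of them and 6.49% CACGTG. A match describes letters and is not a binding site. The windows of ADH1C, ADH1B, ADH1A and ADH6 had 35.6%, 32.4%, 31.6% and 36.4% G and C, and that of ADH5 had 58.0%, which was also the median of all.

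Depth, inferred from the commonest low FPKM value, was about 11300000 fragments in 3D hypoxia, 11800000 in 3D normoxia, 38900000 in 2D hypoxia and 24100000 in 2D normoxia. Counting errors and 95% intervals below come from these estimates and cover the sampling of fragments only. All 5 epithelial markers (EPCAM, CDH1, KRT8, KRT18 and KRT19) were above 1 FPKM in every library. Of 5 blood cell markers only CD14 reached 1 FPKM, no endothelial marker did, and of the fibroblast markers only COL1A1 did, in 2D hypoxia (13.2 FPKM) and 2D normoxia (2.32 FPKM). CD14 had 9.29 FPKM in 3D hypoxia, 11.4 in 3D normoxia, 3.44 in 2D hypoxia and 10.7 in 2D normoxia. The 4 hepatocyte markers summed to 2.40, 1.41, 0.172 and 1.10 FPKM in the same order, so CD14 and this sum were both lowest in 2D hypoxia. Of the 4 only TTR reached 1 FPKM, in 3D hypoxia (2.12 FPKM). ALB and TTR were lowest in 2D hypoxia, but APOA1 was at 0 in 3D normoxia and CYP3A4 at 0 in 3D hypoxia. The library of 2D hypoxia was also the lowest for all 6 expressed members and for KRT8, KRT18 and KRT19, but not for EPCAM and CDH1. KRT19 rose in limma's average effect of 3D, and COL1A1 fell but passed the filter only through 2D. The part of these markers in the results below was not tested. The hypoxia labels were checked with CA9, EGLN3 and NDRG1, known targets of hypoxia-inducible factors, and all 3 rose in limma's average effect of hypoxia. EGLN3 also rose in 3D, by 1.28 ± 0.11 (SE; limma adjusted p = 0.00671), and CA9 and NDRG1 were not called for 3D. In bulk RNA fewer cells with a transcript and less of it per cell cannot be told apart.

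Among the class I enzymes, transcript was found almost entirely for ADH1C. It stood at 0.671 FPKM in 3D hypoxia, 14.3 in 3D normoxia, 0.0151 in 2D hypoxia and 1.09 in 2D normoxia. The library of 3D normoxia was the highest, and the intervals of the 4 libraries did not overlap except those of 3D hypoxia (0.358 to 1.15) and 2D normoxia (0.800 to 1.46). The values rested on about 13, 295, 1 and 46 fragments in that order of libraries.

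ADH1C was 21.3-fold lower in 3D hypoxia than in 3D normoxia (95% counting interval 12.3 to 40.5). Its log2 ratio of FPKM + 1 was -3.19 with a counting error of 0.18, the 15th lowest of 12663 expressed genes. In 2D the log2 ratio of hypoxia to normoxia was -1.04 with an error of 0.11. With only 1 fragment in 2D hypoxia, the FPKM ratio there, 72.4-fold lower, has an interval of 12.4 to 2921.

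On Matrigel in normoxia ADH1C was 13.1-fold higher than on the dish (interval 9.57 to 18.3), with a log2 ratio of 2.87, the 16th highest of all genes. As ADH1C was selected on these values, this rank and that for hypoxia in 3D are only a description. In hypoxia the log2 ratio of 3D to 2D was 0.72 with an error of 0.16. The added 1 FPKM shrinks ratios of such low values, and with 0.1 FPKM added in its place this ratio was 2.74. ADH1C read highest in 3D normoxia and lowest in 2D hypoxia on either scale.

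ADH1A was listed at 0 in all 4 libraries. ADH1B was listed at 0 in 3D hypoxia and 2D hypoxia, with 0.0925 FPKM in 3D normoxia and 0.0151 in 2D normoxia. Since the 3 class I transcripts are alike, fragments can be assigned to the wrong gene, and 10.8% of all 75-base windows of the ADH1C transcript also occur in ADH1A or ADH1B. The share was 20.9% for windows of 50 bases and 6.58% for 100, while the authors' read length is not stated in the labels used here. Summed over the 3 genes, the level was 0.671 FPKM in 3D hypoxia, 14.4 in 3D normoxia, 0.0151 in 2D hypoxia and 1.11 in 2D normoxia, so the sum kept the order of ADH1C.

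**Figure D1:**
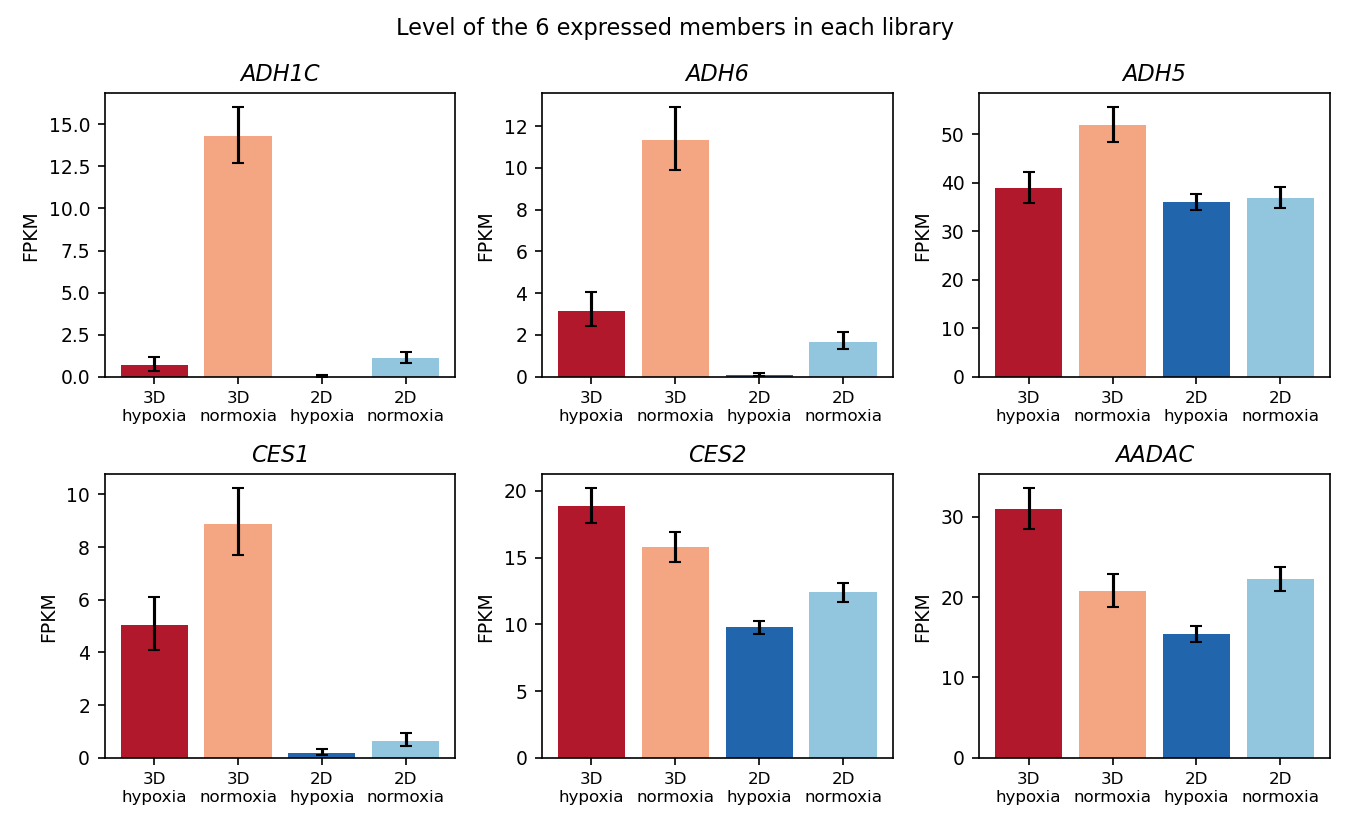
FPKM (vertical axes, each from 0 with its own scale) of the 6 expressed members in the 4 libraries, with 95% counting intervals from the estimated fragments as error bars and 1 library per bar. ADH1C and ADH6 were highest in 3D normoxia (14.3 and 11.3 FPKM), CES1 was higher in both 3D libraries, and ADH5 lay between 36.1 and 51.9 FPKM throughout.

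ADH6, a class V alcohol dehydrogenase whose substrates are little known, had the largest differences of the 4 members that could be tested. It had 3.17 FPKM in 3D hypoxia, 11.3 in 3D normoxia, 0.0899 in 2D hypoxia and 1.68 in 2D normoxia. Both hypoxia libraries were below the normoxia library of the same culture, and both 3D libraries were above the 2D library at the same oxygen level. None of its transcript's windows of 50, 75 or 100 bases occurred in another gene searched.

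ADH6 was 3.58-fold lower in 3D hypoxia than in 3D normoxia (interval 2.69 to 4.83) and 18.7-fold lower in 2D hypoxia than in 2D normoxia (8.18 to 52.8). The log2 ratios were -1.57 and -1.30. It was 6.73-fold higher in 3D than in 2D in normoxia (5.12 to 8.95) and 35.2-fold higher in hypoxia (15.3 to 99.7), with log2 ratios of 2.2 and 1.93. The 2D hypoxia value rested on about 6 fragments.

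Averaged over both cultures, ADH6 fell under hypoxia, with a log2 effect of -1.43 ± 0.16 (SE; limma adjusted p = 0.0151), and it was lower in 2 of 2 pairs. Averaged over both oxygen levels, it rose in 3D by 2.07 ± 0.16 (SE; limma adjusted p = 0.00525), and it was higher in 2 of 2 pairs. Its mean was 7.25 FPKM in 3D and 0.887 in 2D. It therefore passed the filter of 1 FPKM only through 3D, the group where it was high. Its call for 3D, and the 2 of 2 pairs from the same libraries, are not read as a result. Without the filter on low values limma's adjusted p was 0.439 for hypoxia and 0.258 for 3D, so neither call held there. Over the alternatives run, limma's adjusted p ranged over 0.00183 to 0.439 for hypoxia and 0.000405 to 0.258 for 3D. With 0.1 FPKM added in place of 1, the hypoxia effect was -2.52 ± 0.39 (SE; limma adjusted p = 0.0309). The hypoxia responses of the cultures (3D minus 2D) then differed by 1.42, against -0.27 with 1 FPKM. The smaller SE with 1 FPKM thus depends on that choice.

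ADH5, the glutathione-dependent formaldehyde enzyme, was the most abundant member in each library. It had 38.9 FPKM in 3D hypoxia, 51.9 in 3D normoxia, 36.1 in 2D hypoxia and 36.9 in 2D normoxia. The library of 3D normoxia stood above the other 3, whose counting intervals overlapped each other. Its log2 ratio of hypoxia to normoxia was -0.41 in 3D and -0.03 in 2D. The ratio of 3D to 2D was 0.48 in normoxia and 0.10 in hypoxia, and the last turned to -0.09 with every library rescaled to 1000000 FPKM in all.

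Neither average effect passed for ADH5. limma gave -0.22 ± 0.14 for hypoxia (SE; adjusted p = 0.37) and 0.29 ± 0.14 for 3D (SE; adjusted p = 0.173). ADH5 made up 91.0% of the summed FPKM of the 6 alcohol dehydrogenases in 3D hypoxia, 66.9% in 3D normoxia, 99.7% in 2D hypoxia and 93.0% in 2D normoxia. ADH7 was listed at 0 in all libraries.

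The neighbours on chromosome 4 were read after their values were seen. In RefSeq's gene order, METAP1, an aminopeptidase gene beside ADH5, had 29.4 FPKM in 3D hypoxia, 30.4 in 3D normoxia, 35.8 in 2D hypoxia and 27.2 in 2D normoxia. ADH4, a class II enzyme between ADH5 and ADH6, was listed at 0 except for 0.0853 FPKM in 3D normoxia. At the other end TRMT10A, a tRNA methyltransferase, had 2.26, 2.28, 1.79 and 1.70 FPKM in the same order of libraries. ADH6 and ADH1C, the members of the cluster with large ratios, are separated in that order by ADH1A and ADH1B.

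**Figure D2:**
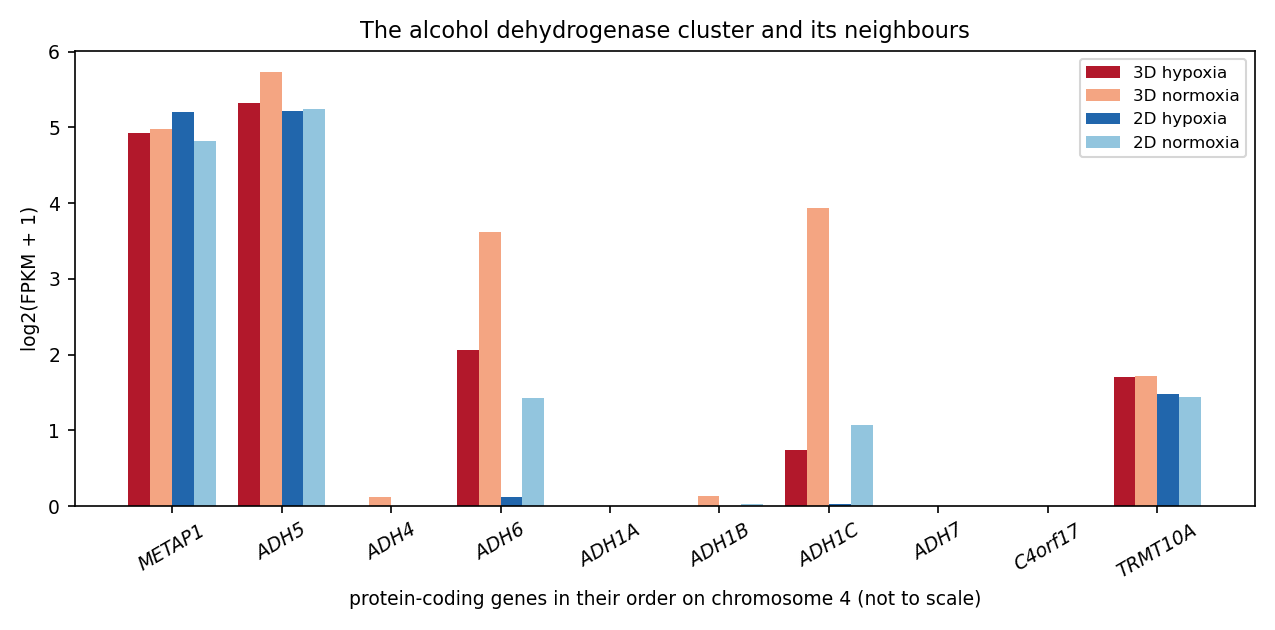
log2(FPKM + 1) (vertical axis) of the protein-coding genes of the alcohol dehydrogenase cluster and its neighbours, in their order on chromosome 4 and not to scale, with 1 bar per library. ADH6 and ADH1C vary between libraries, METAP1, ADH5 and TRMT10A vary little, and ADH1A and ADH7 are at 0.

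CES1, a carboxylesterase of liver and macrophages that cleaves drugs and cholesteryl esters, was at its highest on Matrigel. It had 5.02 FPKM in 3D hypoxia, 8.89 in 3D normoxia, 0.195 in 2D hypoxia and 0.647 in 2D normoxia. Both 3D libraries lay above both 2D libraries, and no counting intervals overlapped. In normoxia it was 13.7-fold higher in 3D than in 2D (interval 9.27 to 21.1), with a log2 ratio of 2.59, the 18th highest of all genes. As CES1 was selected on these values, the rank is only a description.

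In hypoxia CES1 was 25.8-fold higher in 3D than in 2D (14.7 to 48.8), with a log2 ratio of 2.33. Hypoxia libraries were lower than normoxia ones by 1.77-fold in 3D (1.39 to 2.27) and 3.32-fold in 2D (1.70 to 6.81). Both log2 ratios, -0.72 and -0.46, were short of 2-fold, and with 0.1 FPKM added the 2D ratio was -1.34. CES1 has copies on chromosome 16, and 25% of its 75-base windows also occur in CES1P1 or CES1P2. Both were listed at 0 in all libraries.

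CES2, the intestinal carboxylesterase that activates irinotecan, differed less. It had 18.9 FPKM in 3D hypoxia, 15.8 in 3D normoxia, 9.77 in 2D hypoxia and 12.4 in 2D normoxia. The 3D libraries were the higher ones, and the hypoxia library was the higher of the pair in 3D and the lower in 2D. The log2 ratio of hypoxia to normoxia was 0.25 in 3D and -0.31 in 2D, and that of 3D to 2D was 0.32 in normoxia and 0.88 in hypoxia.

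CES2 rose in 3D by 0.60 ± 0.16 (SE; limma adjusted p = 0.0498), just under the threshold. That call was lost with 0.5 FPKM added, with either rescaling of the libraries, without limma's trend and without the filter, and limma's adjusted p ran over 0.0234 to 0.422 over the settings tried. Its average hypoxia effect was -0.03 ± 0.16 (SE; limma adjusted p = 0.92).

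AADAC, a deacetylase that also hydrolyses drugs such as flutamide, was at 30.9 FPKM in 3D hypoxia, 20.7 in 3D normoxia, 15.4 in 2D hypoxia and 22.2 in 2D normoxia. The hypoxia library was the higher of the pair in 3D and the lower in 2D, with log2 ratios of 0.55 and -0.50. In normoxia 3D and 2D differed by -0.09 with a counting error of 0.08, and in hypoxia by 0.97, just short of 2-fold. Neither average effect passed, at 0.02 ± 0.25 for hypoxia (SE; limma adjusted p = 0.965) and 0.44 ± 0.25 for 3D (SE; limma adjusted p = 0.243). A pseudogene beside it, AADACP1, had 16.2, 12.9, 11.9 and 8.05 FPKM in the same order of libraries.

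**Figure D3:**
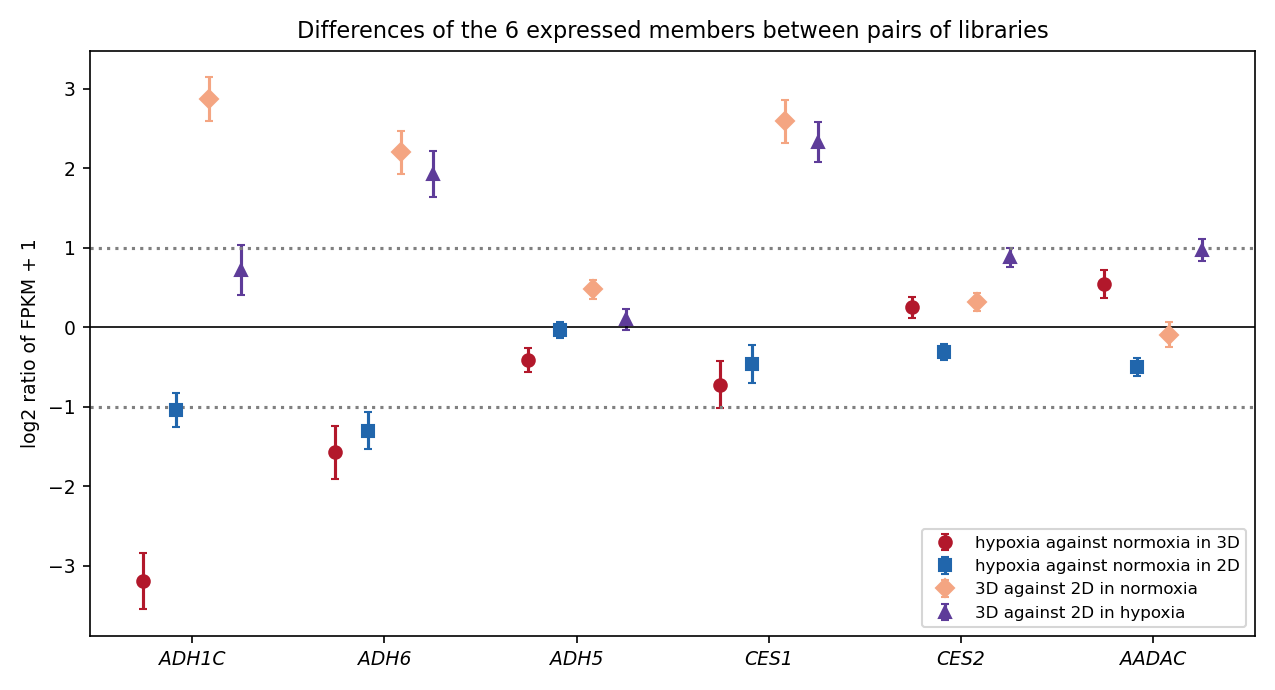
log2 ratio of FPKM + 1 (vertical axis) of each expressed member for the 4 pairs of libraries, with 95% counting intervals as error bars and dotted lines at 2-fold. ADH1C and ADH6 lie at or below -1 for hypoxia in both cultures, and ADH1C, ADH6 and CES1 lie above 2 for 3D against 2D in normoxia.

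Read together, 2 of the 6 expressed members were at least 2-fold lower under hypoxia in 3D (ADH1C and ADH6), where 1.11% of all 12663 genes were, and 0 were higher, against 2.91%. In 2D the same 2 genes were lower, against 1.59% of all genes, and 0 were higher, against 2.01%. For 3D over 2D in normoxia 3 members were higher (ADH1C, ADH6 and CES1), against 1.98%, and 0 were lower, against 2.49%. In hypoxia 2 were higher (ADH6 and CES1), against 3.8%, and 0 were lower, against 3.02%. That count of 2 became 4 with 0.1 FPKM added (ADH1C and AADAC also passed) and 3 with 0.5 FPKM added or with rescaling to the sum. With a mean of at least 5 FPKM required, ADH1C, ADH6 and CES1 drop out, and 0 members were past 2-fold in any pair. ADH1C and CES1 were selected on these values, so nothing is read from these counts. The pairs share libraries.

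The median log2 ratio of the 6 members was -0.56 for hypoxia in 3D, -0.48 for hypoxia in 2D, 1.34 for 3D in normoxia and 0.92 for 3D in hypoxia. The medians of all genes were -0.02, 0.0, -0.03 and -0.03 in the same order. The members' medians include ADH1C and CES1, which were selected on these values, so nothing is read from them. For ADH5, ADH6, CES2 and AADAC the ratios were -0.41, -1.57, 0.25 and 0.55 for hypoxia in 3D. For 3D in normoxia they were 0.48, 2.2, 0.32 and -0.09. Of the 4 members tested by limma, 1 fell under hypoxia (ADH6), where 1.64% of all genes did, and 0 rose, against 3.2%. In 3D 2 of the 4 rose (ADH6 and CES2), against 10.4% of all genes, and 0 fell, against 11.6%. As ADH6 passed the filter only through 3D, this count supports nothing.

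The other genes of alcohol and formaldehyde oxidation were read from a list of 12, of which 11 were expressed. This list and those below were chosen with earlier results of these data known. Their counts and medians are therefore a description, and nothing is read from them about the members. By limma 6 of the 11 rose in 3D (ALDH3A1, ALDH2, ACSS2, AKR1A1, ALDH3A2 and ALDH9A1) and 0 fell, where 10.4% of all genes rose and 11.6% fell. Under hypoxia 2 fell (ALDH3A1 and ALDH2) and 0 rose, where 1.64% of all genes fell and 3.2% rose. On rescaling to the sum ACSS2, AKR1A1, ALDH3A2 and ALDH9A1 lost the call for 3D, and with the upper quartile ALDH3A2 lost it. The list's median log2 ratio for 3D over 2D in normoxia was 0.56, with all 11 above 0, beside -0.03 for all genes.

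ALDH2, the mitochondrial enzyme that oxidises acetaldehyde, had 86.5 FPKM in 3D hypoxia, 131.4 in 3D normoxia, 35.3 in 2D hypoxia and 57.2 in 2D normoxia. Like ADH6, it was lower in the hypoxia library of each culture and higher in 3D at each oxygen level. It rose in 3D by 1.23 ± 0.12 (SE; limma adjusted p = 0.00796) and fell under hypoxia, with a log2 effect of -0.64 ± 0.12 (SE; limma adjusted p = 0.0462). The hypoxia calls of ALDH2 and ALDH3A1 were lost with upper quartile scaling.

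ALDH3A1, an aldehyde dehydrogenase of cornea and lung tumours, had 664.7 FPKM in 3D hypoxia, 1269 in 3D normoxia, 103.9 in 2D hypoxia and 448.8 in 2D normoxia. It rose in 3D by 2.08 ± 0.28 (SE; limma adjusted p = 0.012) and fell under hypoxia, with a log2 effect of -1.52 ± 0.28 (SE; limma adjusted p = 0.0462). ALDH1A1, which oxidises retinal and acetaldehyde, was the most abundant gene of the list at 2823 FPKM in 3D hypoxia, 4277 in 3D normoxia, 3187 in 2D hypoxia and 3527 in 2D normoxia. It passed neither test. ALDH1B1, a mitochondrial relative of ALDH2, passed neither either, at 26.3 to 41.7 FPKM. CYP2E1, the microsomal ethanol oxidase, was below 1 FPKM in every library.

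Of the 10 relatives of the members 3 were expressed, and limma called 0 of the 3 in either direction for hypoxia or 3D (at an unadjusted p under 0.05 there were 2 for hypoxia, CES4A and NCEH1, and 0 for 3D). The carboxylesterase CES3 had 2.95 FPKM in 3D hypoxia, 3.29 in 3D normoxia, 3.56 in 2D hypoxia and 5.15 in 2D normoxia. It was lowest in 3D, unlike CES1 and CES2. NCEH1, a cholesteryl ester hydrolase related to AADAC, lay between 17.9 and 30.3 FPKM.

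Of 18 expressed genes of retinoid metabolism, limma called 2 higher in 3D and 1 lower, shares near the 10.4% and 11.6% of all genes. They were the carbonyl reductase DHRS4 (0.84 ± 0.13, SE; limma adjusted p = 0.016) and the retinol dehydrogenase SDR16C5. SDR16C5 had a mean of 2.51 FPKM in 3D and 0.190 in 2D. It passed the filter only through 3D, so its call, counted in the 2, is not read as a result. RDH11, a retinal reductase, fell in 3D, with a log2 effect of -0.51 ± 0.12 (SE; limma adjusted p = 0.036). Under hypoxia RARA, a retinoic acid receptor, rose by 0.72 ± 0.11 (SE; limma adjusted p = 0.0322), and 0 of the 18 fell, against 3.2% and 1.64% of all genes. CRABP2, a retinoic acid carrier, passed neither test.

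Of 11 expressed other ester hydrolases and cholesterol esterification genes, 2 rose in 3D and 0 fell, against 10.4% and 11.6% of all genes, and 1 rose and 1 fell under hypoxia, against 3.2% and 1.64%. MGLL, the monoacylglycerol lipase, rose in 3D (0.90 ± 0.13, SE; limma adjusted p = 0.0128) and under hypoxia (0.85 ± 0.13, SE; limma adjusted p = 0.0298). CMBL, a hydrolase that activates olmesartan medoxomil, rose in 3D (0.69 ± 0.13, SE; limma adjusted p = 0.0235) and fell under hypoxia, with a log2 effect of -0.80 ± 0.13 (SE; limma adjusted p = 0.0387). ESD, which releases formate in the pathway of ADH5, and BPHL, which activates valacyclovir, passed neither test.

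Of 14 expressed genes listed as hepatic and epithelial regulators, 6 rose in 3D (CEBPA, FOXA1, FOXA3, KEAP1, NR1H4 and PPARA) and 0 fell, against 10.4% and 11.6% of all genes. Under hypoxia 2 fell (FOXA1 and FOXA3) and 0 rose, against 1.64% and 3.2%. As this list too was chosen with earlier results of these data known, nothing is read from its counts. FOXA1 lost its hypoxia call with upper quartile scaling, and KEAP1 and PPARA lost theirs for 3D on rescaling to the sum. FOXA3, a forkhead factor of liver and gut, had 1.98 FPKM in 3D hypoxia, 5.60 in 3D normoxia, 0.472 in 2D hypoxia and 3.23 in 2D normoxia. It fell under hypoxia, with a log2 effect of -1.34 ± 0.17 (SE; limma adjusted p = 0.0222) and rose in 3D by 0.83 ± 0.17 (SE; limma adjusted p = 0.027). NR1H4, the bile acid receptor, had a mean of 3.06 FPKM in 3D and 0.630 in 2D. It passed the filter only through 3D, so its call, counted in the 6, is not read as a result. Any part of these regulators in the levels of the members was not tested. Over these 5 lists limma called 7 genes for hypoxia and 17 for 3D, with NR1H4 and SDR16C5 among the 17. All called genes kept their sign when the libraries were rescaled to their sum or to their upper quartile. With the sum 7 and 11 of them stayed called, and with the upper quartile 2 and 16 did, where CMBL and RARA also lost their hypoxia calls. In the fit with no filter, limma called 0 genes of the whole table.

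**Figure D4:**
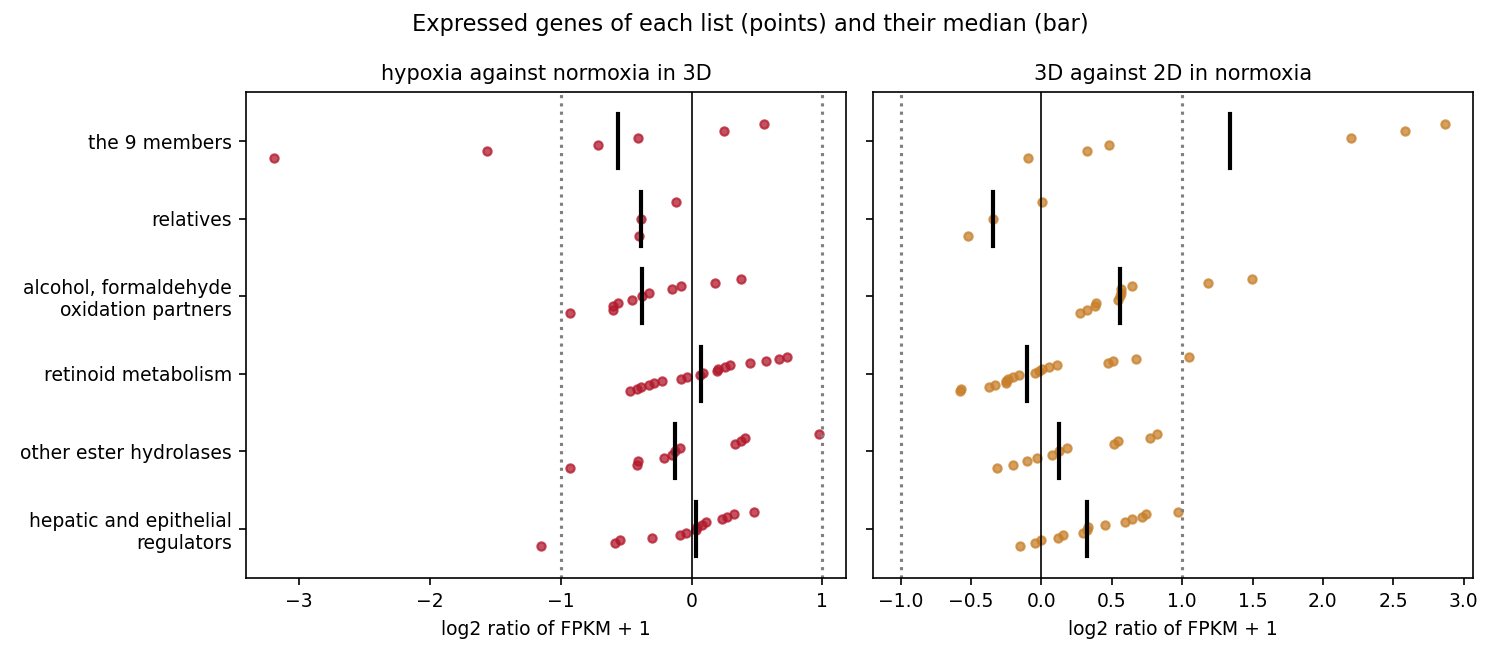
log2 ratio of FPKM + 1 (horizontal axes) of the expressed genes of each list, 1 point per gene with the list's median as a bar and dotted lines at 2-fold, for hypoxia against normoxia in 3D (left) and 3D against 2D in normoxia (right). The members' median is -0.56 on the left and 1.34 on the right, and all 11 oxidation partners lie above 0 on the right. The members include ADH1C and CES1, which were selected on these values, so nothing is read from their median. The other lists were chosen with earlier results of these data known, so their points are a description.

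ADH1C and CES1 were selected on these values, so the counts of genes with their shape are a description and support nothing. Levels at least 2-fold lower under hypoxia in both cultures were found for 66 genes, 0.521% of those expressed, among them ADH1C and ADH6. In 58 genes, 0.458%, 3D normoxia was at least 2-fold above both 3D hypoxia and 2D normoxia, again with ADH1C and ADH6 among them. At least 2-fold higher in 3D at both oxygen levels were 164 genes, 1.3%, with ADH6 and CES1. CES1, at 0.195 FPKM in 2D hypoxia and 0.647 in 2D normoxia, passed the filter only through 3D, as did ADH6. ADH1C was below 1 FPKM in both hypoxia libraries and passed it only through normoxia.

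The genes most like each member were found by the Euclidean distance between the 4 values of log2(FPKM + 1), each gene centred on its mean, among 9694 genes. Nearest to ADH1C were FCGBP, a mucus protein (0.692), ACOX2, a peroxisomal oxidase (1.06), EHF, an epithelial transcription factor (1.13), and ADH6 (1.20), then HLA-DMB, HIF1A-AS2, CLDN2 and SYNGR4. FCGBP had 2.21 FPKM in 3D hypoxia, 27.3 in 3D normoxia, 0.200 in 2D hypoxia and 3.72 in 2D normoxia. HIF1A-AS2 is antisense to HIF1A, and the labels used here do not state the strand setting of the counting.

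Nearest to CES1 were TSPAN7, a tetraspanin (0.275), ZDHHC8P1, a pseudogene (0.287), RAB37, TESC, PRSS3, GPX2, CYB5B and RARRES1. TSPAN7 had 22 FPKM in 3D hypoxia, 28.6 in 3D normoxia, 3.31 in 2D hypoxia and 5.06 in 2D normoxia, so that, as for CES1, both 3D libraries were above both 2D libraries. ADH6 ranked 22nd in likeness to CES1. The genes nearest to ADH6, a list added after its values were seen, were EHF (0.281), TSPAN8, a tetraspanin (0.296), CEACAM1, TBXAS1, NOSTRIN, SELENBP1, HLA-DMB and RARRES1. All rest on 4 libraries.

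**Figure D5:**
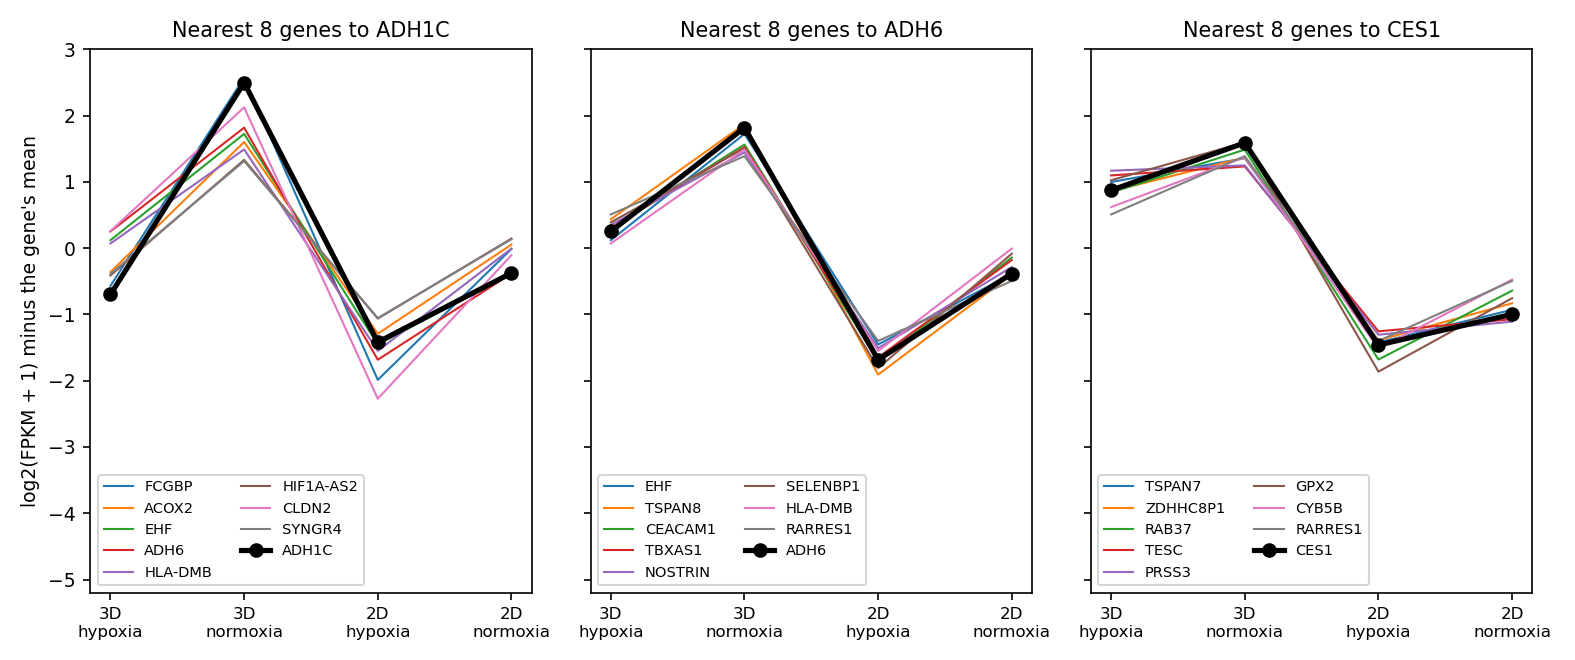
log2(FPKM + 1) minus each gene's mean over the 4 libraries (vertical axis) for ADH1C, ADH6 and CES1 (black) and the 8 genes nearest to each (colours), with lines joining the values of 1 gene. In the panels of ADH1C and ADH6 3D normoxia is the peak, and in that of CES1 both 3D libraries are high.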

How the data were processed

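For each symbol the authors deposited an FPKM value in each library. Per the labels' protocols, the mRNA libraries were stranded (TruSeq). Per the submitters' processing notes, the tools included Cuffdiff 2.2.1 and TopHat2 2.1.1, with Bowtie2 2.2.8 and SAMtools 0.1.18, and the build was hg19. Not given in the sources used here are the annotation, library scaling, strand setting, read length and depth. FPKM are not counts, so values were taken as log2(FPKM + 1), which understates differences of low genes. Depth was estimated from 2134 genes with a single GENCODE 29 transcript over 1000 bases, used for lengths only.

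With 1 library per group, pairs were described by size (at least 2-fold). To test oxygen and culture on average, limma 3.58.1 (R 4.3.3) was fitted to 12663 genes whose mean reached 1 FPKM, with both as additive terms, a trend, 1 residual degree of freedom and Benjamini-Hochberg adjustment at 0.05. That residual is the difference of the hypoxia responses between the cultures, so SE and p-values reflect departure from additive effects and not replicate spread. The fit was also run on values simulated from its own fitted model, with additive effects. Such values cannot show how the fit does where effects are not additive. Other steps used Python 3.11.15, pandas 2.3.3, scipy 1.17.1 and Biopython 1.88. Alternatives changed the pseudocount, scaling, filter and trend.

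The members and lists were chosen with earlier results of these data known. Named were all members, every listed gene that limma called, up to 4 per list with the largest log2 ratios for 3D over 2D in normoxia or hypoxia over normoxia in 3D, and the 8 genes most like ADH1C and CES1.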

Additional observations from a re-analysis of the deposited data

Results flagged for a closer look

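CES2 and AADAC had hypoxia ratios of opposite sign in the 2 cultures. For CES2 the log2 ratio of hypoxia to normoxia was 0.25 in 3D and -0.31 in 2D, a difference of 0.56 with a counting error of 0.09. For AADAC it was 0.55 in 3D and -0.50 in 2D, a difference of 1.06 with a counting error of 0.11. AADAC also had ratios of 3D to 2D of opposite sign, 0.97 in hypoxia and -0.09 in normoxia, which is the same difference of 1.06. With 1 library per group the difference was not tested.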

How the results depend on the processing

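No paired analysis was possible because the labels give no replicate numbers shared by groups, though limma's additive terms match libraries on the other factor. With 1 library per group, none was left out in turn. With 0.1 FPKM added, 698 genes were past 2-fold for hypoxia in 2D (456 with 1 FPKM), 924 for 3D in normoxia (566) and 607 for the difference of the responses (346). Rescaling each library to a sum of 1000000 gave 899 for 3D in normoxia and moved the median of all genes to -0.14, -0.13, -0.21 and -0.21 in the 4 pairs. It moved the share of higher genes from 72.3% to 58.1% for hypoxia in 3D, 55.9% to 40.9% in 2D, 44.3% to 21.7% for 3D in normoxia and 55.7% to 35.8% in hypoxia, and among limma's calls from 66.1% to 38.9% for hypoxia and 47.1% to 19.7% for 3D. limma called 613 genes for hypoxia, against 286 with upper quartile scaling, 366 without trend and 1286 when small RNA genes and any gene at 0 in a library were dropped. With no filter at all limma called 0 genes for hypoxia (2812 at an unadjusted p under 0.05) and 0 for 3D (4518), against 2785 with the filter. After these zeros were seen, a fit that dropped only genes listed at 0 in every library was added, and it called 5 and 3. ADH6 lost both calls in both of these fits, with limma adjusted p of 0.113 for hypoxia and 0.0543 for 3D in the added one, and kept its direction. The average hypoxia effect of AADAC reversed to -0.11 on rescaling to the sum (limma adjusted p = 0.802). With 0.1 FPKM added, the difference of the hypoxia responses was 1.42 for ADH6, of the other sign than with 1 FPKM (-0.27), and 0.53 for CES1 (-0.25), and that of ADH1C was -0.85, no longer past 2-fold. The causes were not tested. The values of ADH1C and ADH6 in 2D hypoxia rest on about 1 and 6 fragments, in the deepest library.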
